A study of Mus musculus with 17 samples.

Results

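The interferon-stimulated genes described here are 35 mouse genes that cells switch on when they sense interferon, measured in cultured marrow cells carrying microRNA vectors. Members were taken by gene symbol, as all probes that the array annotation assigns to those symbols. The gene list was chosen with earlier results of these data known. Of the 35 genes, 34 had at least 1 named probe, among 19057 genes with a probe, and these 34 genes had 60 of the 45281 probes. No named probe was found for Ifi44. Each gene was represented by its brightest probe. A gene was tested where that probe stood above the negative control beads (detection p under 0.05) on 2 or more arrays of dataset A or 3 or more of dataset B. This held for 25 members in dataset A and for 23 in dataset B, all 23 of them also tested in A.

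Interferons of type I bind a receptor whose kinases Jak1 and Tyk2 start a signal that brings a complex containing Stat2 and Irf9 to the interferon-stimulated response element of target promoters. Interferon gamma has its own receptor and acts at the gamma-activated site, and many target genes answer to both kinds. The induced proteins degrade or sequester viral RNA, hold back budding viruses, attack the vacuoles of intracellular microbes, and amplify or end the signal. In mouse marrow, type I interferon is also known to drive dormant stem cells into division, and stem cells express part of this gene set without infection.

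Marrow was harvested from C57Bl/6 mice 4 days after 150 mg/kg 5-fluorouracil, and its cells grew for 7 days in serum-containing StemSpan medium with Flt3 ligand, interleukin-11 and stem cell factor. All groups, controls included, were infected with MXW retroviral vectors bearing EGFP, made in Phoenix ecotropic cells, and viable EGFP+ cells were taken 5 days after the first infection. In dataset A, 3 arrays carried the empty vector, 3 the miR-cluster 99b/let-7e/125a (the cluster) and 2 miR-155. Dataset B had 3 arrays for each of its vectors, which were miR-125a, the cluster and the empty vector. The design text calls the replicates independent biological triplicates, and only 2 miR-155 arrays were analysed here. P-values measure the spread between these samples. No sample without a vector was analysed here, so every difference is between infected cultures, and how many animals stand behind an array is not stated.

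The microRNAs of the vectors are shown because they define the groups. They are the mature 5p arms from RefSeq (GRCm38.p6), with the seed, bases 2 to 8, in capitals. The cluster members lie on the plus strand of chromosome 17, at chr17:17830194-17830215, chr17:17830366-17830387 and chr17:17830817-17830840. The fourth, miR-155, lies at chr16:84714143-84714165, and no seed is shared between any pair of them.
mmu-miR-99b-5p: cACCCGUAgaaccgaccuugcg
mmu-let-7e-5p: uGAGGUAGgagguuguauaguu
mmu-miR-125a-5p: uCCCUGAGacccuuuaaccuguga
mmu-miR-155-5p: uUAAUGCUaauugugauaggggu

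The choice by symbol did not use promoter sequence, and many members carry the motif of the interferon response there. Promoter entries of 300 bases (250 before and 50 after the RefSeq start site, GRCm38.p6) matched 26 of the 35 members. The core of the interferon-stimulated response element, GAAANNGAAA on either strand with overlapping matches counted, stood in 15 of these 26 (57.7%). Over all 27025 genes with an entry the share was 3.99%, and among other interferon-induced genes outside the members it was 27 of 63 (42.9%). The core was not found in the entries of the other 11 members. The gamma-activated site TTCNNNGAA, counted separately and free to overlap the first motif, stood in 7 of 26 members (26.9%), in 9 of those 63 genes (14.3%) and in 9.55% of all genes. The stretches below surround the first motif chain of members that carry the larger differences in the sections that follow, and of Isg15 and Irgm1. Capitals mark the response-element core on either strand, and each stretch reads along its gene's own strand.
Bst2, chr8:71537567-71537622, minus strand: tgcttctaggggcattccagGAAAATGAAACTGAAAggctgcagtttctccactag
Rsad2, chr12:26456543-26456592, minus strand: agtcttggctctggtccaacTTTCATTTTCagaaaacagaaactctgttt
Gbp3, chr3:142559979-142560034, plus strand: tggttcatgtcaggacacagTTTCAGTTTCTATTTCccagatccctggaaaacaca
Gbp2, chr3:142620584-142620633, plus strand: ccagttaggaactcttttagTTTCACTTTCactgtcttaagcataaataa
Stat2, chr10:128270256-128270305, plus strand: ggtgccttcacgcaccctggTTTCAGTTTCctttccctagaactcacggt
Isg15, chr4:156200855-156200916, minus strand: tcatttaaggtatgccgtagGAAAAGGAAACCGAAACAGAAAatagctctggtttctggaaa
Irgm1, chr11:48871415-48871470, minus strand: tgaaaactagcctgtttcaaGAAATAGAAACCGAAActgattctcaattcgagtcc

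Bst2, Gbp3 and Irgm1 held 2 overlapping cores and Isg15 held 3. Gbp3 has 2 promoter entries, and the other holds no match. The first motif base lay at position -130 from the start site in Bst2, -120 in Rsad2, -45 in Gbp3, -59 in Gbp2, -222 in Stat2, -78 in Isg15 and -30 in Irgm1. No match was found in the windows of Irf9, Oasl2, Ifit2, Cmpk2 and Dtx3l, which says only that these letters are not in those 300 bases. Ifi27l2a, Parp14 and Zbp1 were not among the genes with an entry. A match is a description of sequence and was not tested as a binding site.

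The share of probes detected on an array ran from 34.8% to 38.7% in dataset A and from 34.2% to 38.9% in B, and the number of arrays, rather than a read depth, limits the precision. Of the 8 primitive progenitor markers with a probe, 7 (Kit, Cd34, Gata2, Myb, Meis1, Hoxa9 and Sox4) were detected on every array, and Flt3 on 1 array of dataset A and 0 of dataset B. All 10 neutrophil markers were detected in both datasets. In dataset A, 4 of 10 neutrophil and 2 of 4 tested eosinophil markers fell with the cluster (limma adjusted p under 0.05), where 0.643% of all genes were called. With miR-155, 5 of 10 neutrophil, 1 of 5 macrophage and 1 of 8 mast cell and basophil markers fell, where 1.04% of all genes were called. Positive differences, with 0 calls, were given by 2 neutrophil and 1 eosinophil markers with the cluster. With miR-155 they were given by 1 neutrophil and 2 mast cell and basophil markers.

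Several of the best known antiviral members were at background in every group. Ifit1, whose protein binds foreign RNA ends, was detected on 0 of 8 arrays in dataset A and 1 of 9 in dataset B. Mx1 and Mx2, dynamin-like GTPases that trap viral particles, were detected on 0 and 0 arrays in A and on 0 and 1 in B. Oas1a, Oas2 and Oas3, synthetases of the oligoadenylate that activates RNase L, were detected on 0, 1 and 1 arrays in A and on 0 in B. Oasl1, an OAS-like protein, was detected on 1 array of each dataset, Ifih1, the RNA sensor MDA5, on 1 array of A, and Xaf1, an inhibitor-of-apoptosis partner, on none of the 17. The deposited intensities of the probes used for these 9 genes ran from 79.0 to 97.3 in dataset A and from 100.4 to 123.5 in B. None of the 9 was tested, and no difference between vectors is given for them.

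**Figure D1:**
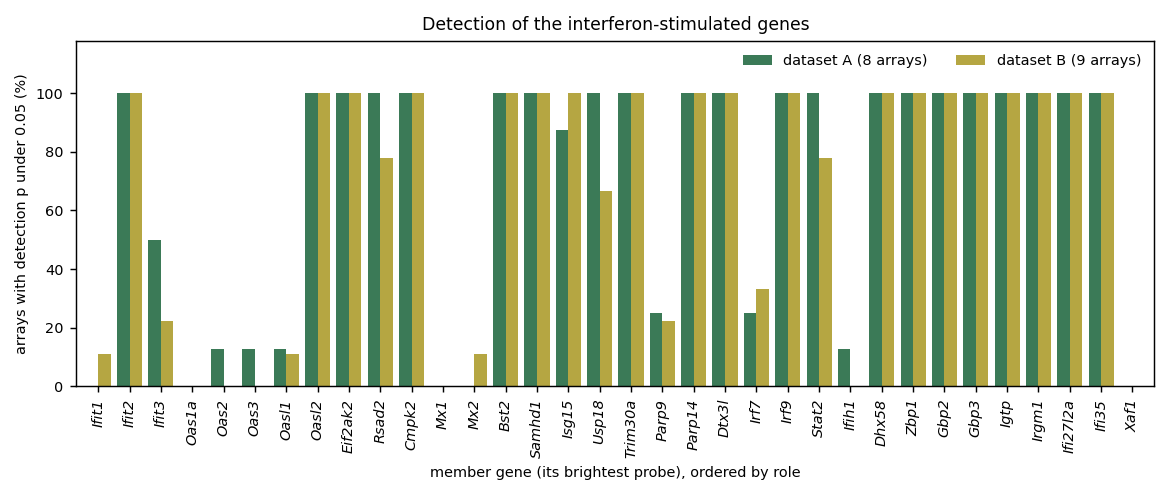
Share of arrays (vertical axis, in percent) on which the brightest probe of each of the 34 members with a probe was detected, in dataset A (8 arrays, green) and dataset B (9 arrays, yellow). Ifit1, Oas1a, Oas2, Oas3, Oasl1, Mx1, Mx2, Ifih1 and Xaf1 were detected on at most 1 array of either dataset, while most other members were detected on all of them.

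Ifit3, a partner of Ifit1, was detected on 4 of 8 arrays in dataset A and 2 of 9 in B. Parp9, an ADP-ribose enzyme that works in a complex with the ubiquitin ligase Dtx3l, was detected on 2 and 2 arrays. Irf7, the factor that drives interferon-alpha genes, was detected on 2 arrays in A and 3 in B. Its log2 normalized intensities ran from 4.27 to 4.60 on 7 arrays of dataset A and reached 5.16 on miR-155 array 2. Usp18, Stat2 and Rsad2 were detected on all 8 arrays of A and on 6, 7 and 7 of the 9 arrays of B, and Isg15 on 7 of 8 and 9 of 9. The other 18 tested members were detected on all 17 arrays.

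Beside the empty vector, 0 of 25 members passed the test with the cluster in dataset A and 0 of 25 with miR-155. With the cluster in dataset B 0 of 23 passed, and with miR-125a 0 of 23. The direct comparison of cluster and miR-155 in dataset A gave 1 of 25, Ifi27l2a, lower with the cluster. An adjusted p under 0.05 in limma, with Benjamini-Hochberg adjustment over every gene tested, counts as passing, and differences are of log2 normalized intensity. The comparisons with the empty vector within a dataset share their control arrays.

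The cluster in dataset A was compared with the empty vector to ask whether the interferon-stimulated genes moved with it. None of 25 members passed, against 0.643% of all 10267 genes tested. At an unadjusted p under 0.05 there was 1 member, Parp14, against 7.81% of all genes. Groups did not overlap for 3 members, 1 higher (Trim30a) and 2 lower (Parp14 and Irf9), where 13% of all genes had groups that did not overlap. The median log2 difference of the members was -0.02, beside 0.00 over all genes, and 12 of 25 members (48%) had a positive value, as had 50.3% of all genes. In bulk RNA, fewer cells of a type and less RNA per cell cannot be told apart.

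Parp14, an ADP-ribosyltransferase, gave the largest difference. It read 7.31, 7.44 and 7.61 on empty-vector arrays 1 to 3, 7.08 and 7.17 on cluster arrays 1 and 3, and 6.68 on the cluster array without a number. Every cluster array lay below every control array. The log2 difference was -0.48 ± 0.18 (SE, 3 arrays against 3, adjusted p = 0.422).

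Irf9, the DNA-binding partner of Stat2, read 7.19, 7.18 and 7.01 with the empty vector and 6.91, 6.77 and 6.73 with the cluster. The groups were apart, and the miR-155 arrays, at 6.82 and 6.86, also lay below all controls. The cluster difference was -0.33 ± 0.16 (SE, adjusted p = 0.650), and a second, dimmer probe of Irf9 gave -0.21. With miR-155 the probes disagreed, at -0.29 for the one used and 0.16 for the second. Stat2, the transactivating partner of that complex, ranged widely within the cluster group, from 4.99 to 6.27, and its difference of -0.32 ± 0.27 (adjusted p = 0.880) lay within that spread. The third transcription factor, Irf7, differed by -0.12, and its probe was detected on 0 of 3 cluster arrays and 1 of 3 empty-vector arrays. All 3 transcription factors had negative values and none passed. The sign of Irf7 was that of a probe at background, and Stat2 gave -0.03 without cluster array 3.

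Among the RNA-binding effectors, Oasl2 differed by 0.31 ± 0.20 (adjusted p = 0.810) and Ifit2 by 0.29 ± 0.18 (adjusted p = 0.807). Eif2ak2, the RNA-activated kinase PKR that halts translation, differed by -0.08, and Ifit3 by -0.24. Of the other antiviral effectors, Bst2, the tetherin that holds budding virions at the surface, differed by 0.24, and Cmpk2, a mitochondrial nucleotide kinase, by 0.17. Samhd1, which degrades the nucleotides that reverse transcription needs, differed by 0.03, and Rsad2, the antiviral enzyme viperin, by -0.12. Isg15, the ubiquitin-like modifier, and Usp18, the protease that removes it and damps the receptor, differed by 0.09 and 0.16. The GTPases Gbp2, Gbp3, Igtp and Irgm1, which act on vacuoles of intracellular microbes, ran from -0.21 to 0.24. The sensors Dhx58 (LGP2) and Zbp1, which binds Z-form nucleic acid, differed by -0.02 and -0.11. The 95% intervals of all 25 members lay within a log2 difference of 1 to either side of 0, with a median half-width of 0.40.

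**Figure D2:**
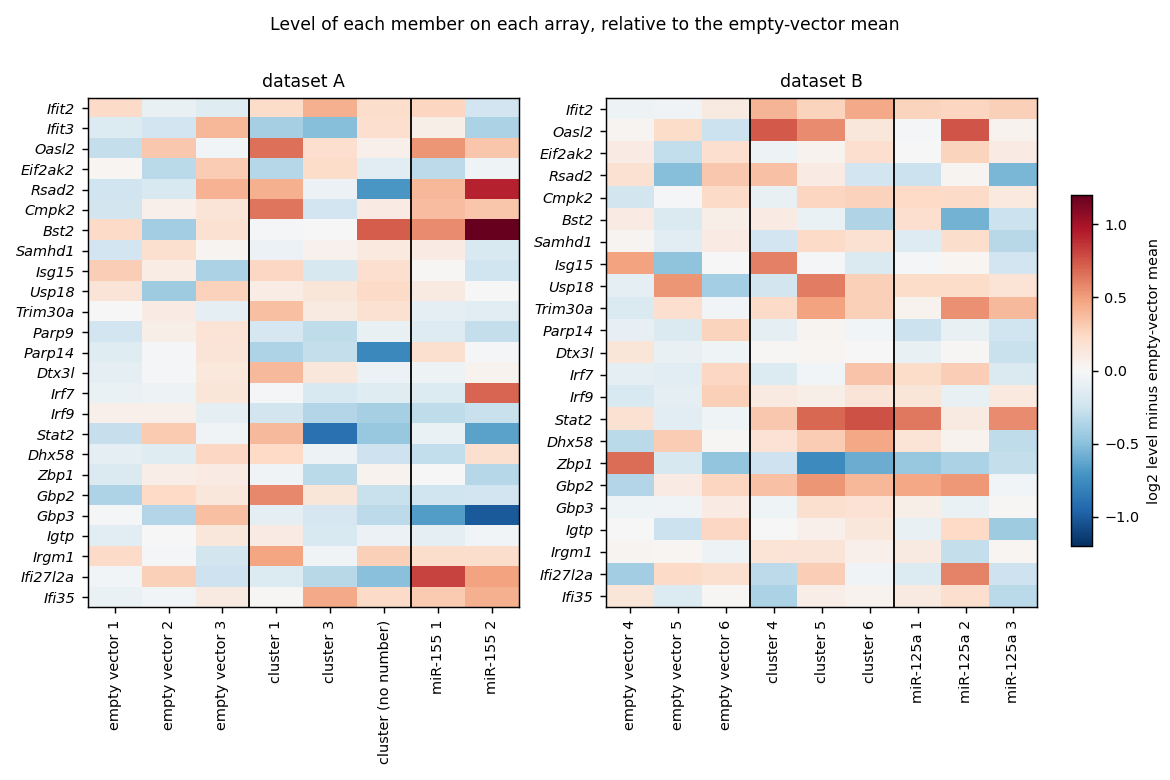
Level of each tested member (rows, ordered by role) on each array (columns) minus its mean over the empty-vector arrays of the same dataset, in log2 units (red higher, blue lower). Bst2 and Rsad2 are deepest red on miR-155 array 2 and Gbp3 is deepest blue on both miR-155 arrays, while no vector group shows 1 colour down its columns.

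With miR-155 in dataset A, the members with the largest values were Bst2 (positive) and Gbp3 (negative), and neither passed the test. None of 25 members passed, against 1.04% of all genes, and 4 had an unadjusted p under 0.05 (Bst2, Rsad2, Ifi27l2a and Gbp3), against 8.98%. Groups did not overlap for 7 members, 5 higher (Bst2, Ifi27l2a, Oasl2, Ifi35 and Cmpk2) and 2 lower (Gbp3 and Irf9, the latter by 1 of its 2 probes). With 3 arrays against 2, 24% of all genes had groups that did not overlap. These groups are of normalized values. In the deposited intensities miR-155 array 2 lay below every control for Oasl2 (102.3), Ifi35 (160.1) and Cmpk2 (106.8). For Ifi27l2a (108.9) it lay below empty-vector arrays 1 and 2. That array had the lowest median intensity of dataset A (84.8). The members' median was -0.04 beside 0.01 over all genes, and 11 of 25 were positive.

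Bst2 read 6.50, 5.86 and 6.46 with the empty vector and 6.84 and 7.52 with miR-155. Both miR-155 arrays were above all controls, and 1 of the cluster arrays (7.00) was too. In the deposited intensities miR-155 array 2 (172.9) lay below empty-vector array 1 (190.7). The log2 difference was 0.90 ± 0.27 (SE, 1.87-fold, adjusted p = 0.186). Bst2 also marks plasmacytoid dendritic cells in mice. The summed normalized intensity of 7 markers of these cells was 1280 to 1512 with miR-155 and 1572 to 1824 with the empty vector, with Ccr9 and Klk1 never detected. Such a sum follows its brightest genes. Singly, 2 of the 4 tested markers had a positive difference and 2 a negative one, with 0 calls. The part of these cells in the result was not tested.

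Rsad2 read 5.24, 5.29 and 5.89 with the empty vector and 5.87 and 6.40 with miR-155. The lower miR-155 array fell just under the highest control, so the groups overlapped. The difference was 0.66 ± 0.29 (1.58-fold, adjusted p = 0.487), and 0.29 without background correction. Its genomic neighbour Cmpk2 read 5.40, 5.68 and 5.77 with the empty vector and 5.99 and 5.94 with miR-155, a difference of 0.35 ± 0.23 (adjusted p = 0.736).

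Ifi27l2a, a small membrane protein of the ISG12 family, read 5.52, 5.84 and 5.30 with the empty vector and 6.36 and 6.03 with miR-155. After normalization both miR-155 arrays were above all controls, and the difference was 0.65 ± 0.20 (1.56-fold, adjusted p = 0.231). Ifi35, a leucine-zipper protein of the response, differed by 0.37 ± 0.19 (adjusted p = 0.586) and Oasl2 by 0.43 ± 0.22 (adjusted p = 0.602).

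Gbp3 went the other way. It read 7.84, 7.51 and 8.22 with the empty vector, 7.74, 7.65 and 7.54 with the cluster, and 7.19 and 6.84 with miR-155. Both miR-155 arrays were below the 6 other arrays of the dataset. The difference from the empty vector was -0.84 ± 0.21 (1.79-fold lower, adjusted p = 0.0891), and a second probe of the gene gave -0.38. Leaving out empty-vector array 2, the lowest control, made it -1.02 with an adjusted p of 0.0417, and it was the 1 member to pass under that choice. Its relatives Gbp2, Igtp and Irgm1 differed by -0.23, -0.07 and 0.21.

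Macrophage and neutrophil marker sums on the miR-155 arrays also lay below those of the empty vector, and the neutrophil sums overlapped those of the cluster. The summed normalized intensity of 8 macrophage markers was 662 to 735 with miR-155, 1034 to 1223 with the empty vector and 995 to 1026 with the cluster, with 1 of the 8 never detected in dataset A. That of 10 neutrophil markers was 32646 to 34496 with miR-155, 39538 to 46764 with the empty vector and 29088 to 34095 with the cluster. Their part in the differences of Bst2, Gbp3, Ifi27l2a and Rsad2 was not tested.

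**Figure D3:**
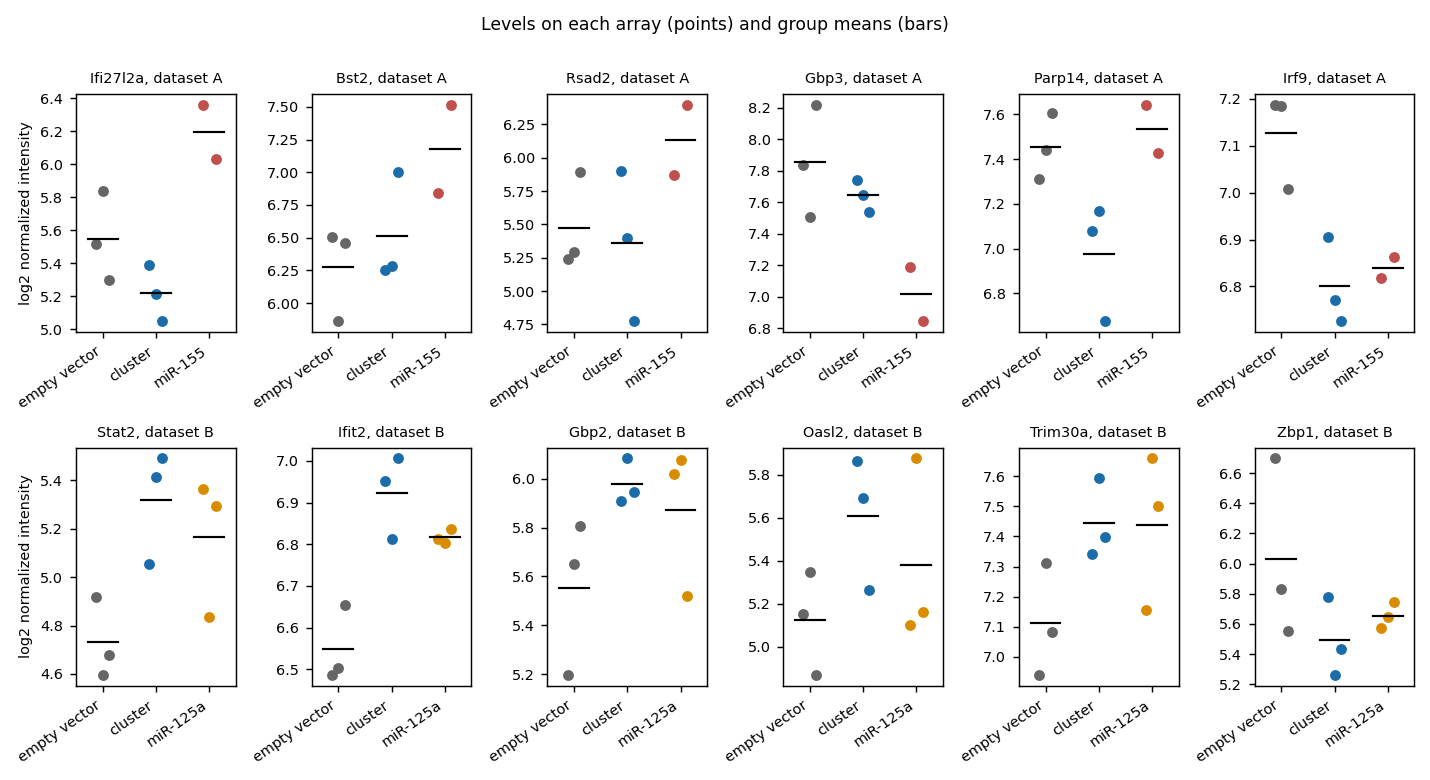
Log2 normalized intensity (vertical axis, its range set per panel) of 6 members in dataset A (upper row) and 6 in dataset B (lower row) on each array, with black bars at group means. The miR-155 arrays are highest for Ifi27l2a and lowest for Gbp3, and the cluster arrays of dataset B lie above the empty-vector arrays for Stat2, Ifit2, Gbp2 and Trim30a.

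Set directly against each other in dataset A, the cluster and miR-155 differed in 1 of 25 members, against 0.857% of all genes. Ifi27l2a fell to 5.39, 5.22 and 5.05 on the cluster arrays from 6.36 and 6.03 on the miR-155 arrays. After normalization all cluster arrays lay below both miR-155 arrays. The normalized controls, from 5.30 to 5.84, overlapped the cluster arrays but not the miR-155 arrays. In the deposited intensities miR-155 array 2 (108.9) lay below cluster array 1 (116.3) and below empty-vector arrays 1 and 2. It lay above the other cluster arrays, and miR-155 array 1 (159.8) lay above every cluster and control array. The difference was -0.98 ± 0.20 (SE, 3 arrays against 2, 1.97-fold, adjusted p = 0.0334). The call depended on single arrays. The adjusted p was 0.0775 without cluster array 3, 0.134 without the cluster array that has no number, 0.187 without miR-155 array 1 and 0.128 without miR-155 array 2, where the remaining array is assumed to vary like the other groups. The difference stayed between -0.81 and -1.17 under these 4 choices. Without background correction it was -0.42 with an adjusted p of 0.141.

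At an unadjusted p under 0.05 there were 5 members, against 10.2% of all genes. The other 4 were Rsad2 (-0.78 ± 0.29, adjusted p = 0.315), Bst2 (-0.67 ± 0.27, adjusted p = 0.372), Parp14 (-0.56 ± 0.20, adjusted p = 0.281) and Gbp3 (0.63 ± 0.21, adjusted p = 0.261). Groups did not overlap for 4 members, Gbp3 and Trim30a higher with the cluster and Ifi27l2a and Parp14 lower, where 25.1% of all genes had groups that did not overlap. The 2 miR-155 arrays read 7.64 and 7.43 for Parp14, above every cluster array. These groups are of normalized values, and of the 4 members only Gbp3 also had groups apart in the deposited intensities. There miR-155 array 2 (166.7) lay below every cluster array for Parp14. For Trim30a miR-155 array 1 (246.3) lay above cluster array 3. The 4 GTPases all had positive values, from 0.02 to 0.63, and the members' median was 0.03 beside 0.00 over all genes.

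**Figure D4:**
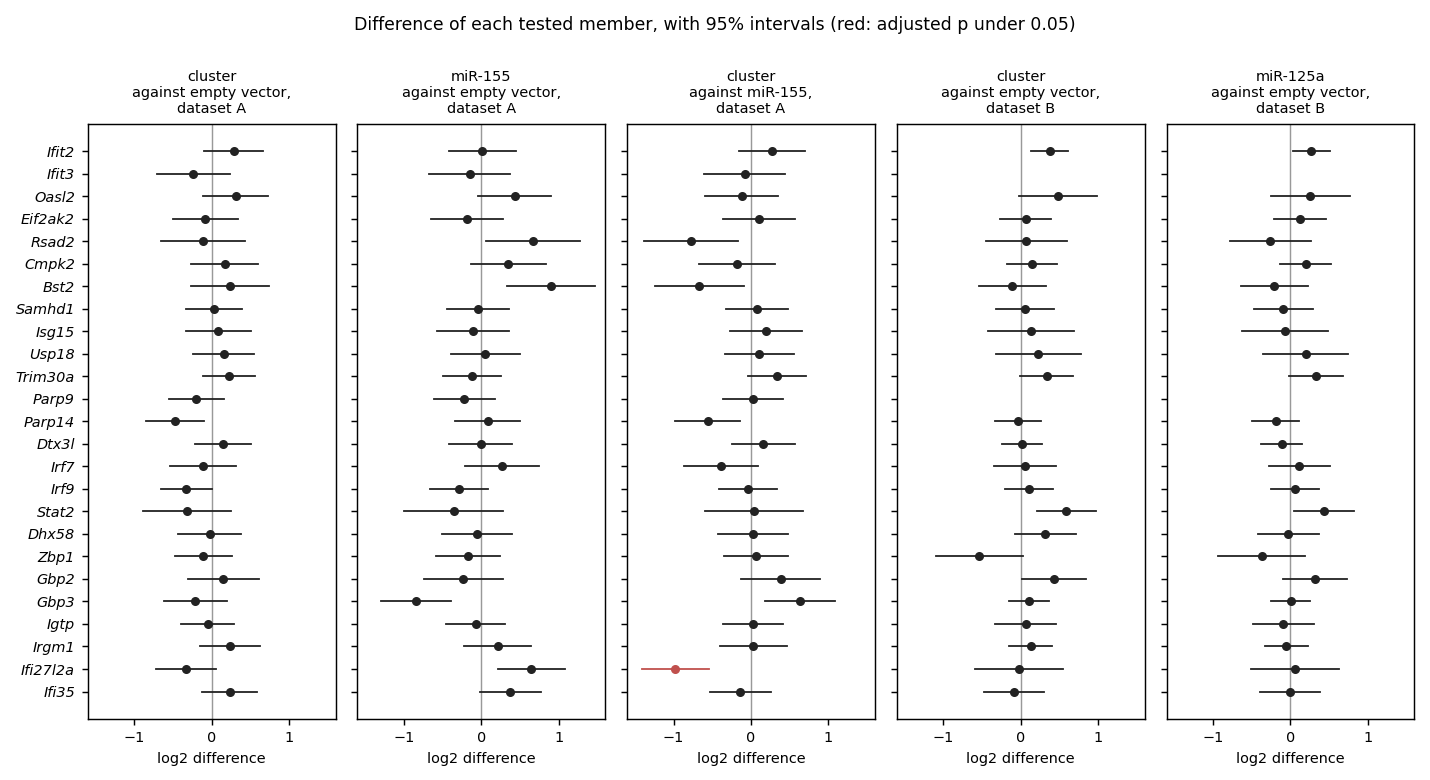
Log2 difference (horizontal axis) of each tested member with its 95% interval in 5 comparisons, members ordered by role and the 1 call in red. Most intervals cross 0, and the interval of Ifi27l2a for cluster against miR-155 runs from -1.41 to -0.54.

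Dataset B repeated the cluster comparison with other samples and set miR-125a alone beside it. With the cluster, 0 of 23 members passed, where 1 of 9395 genes (0.0106%) did. At an unadjusted p under 0.05 there were 3 members (Ifit2, Stat2 and Gbp2), against 9.8% of all genes. Groups did not overlap for 5 members, all higher with the cluster (Stat2, Ifit2, Gbp2, Trim30a and Irgm1), where 16.1% of all genes had groups that did not overlap. The members' median was 0.10 beside 0.02 over all genes, and 18 of 23 (78.3%) had a positive value, as had 54.9% of all genes. Genes that respond together are not independent, and this share was not tested. The summed normalized intensity of the 8 primitive progenitor markers was 2666 to 2951 with the cluster and 2298 to 2587 with the empty vector, without overlap. That of the 8 mast cell and basophil markers was 4432 to 4980 against 4112 to 4510. Such sums follow their brightest genes, and Gata2 is in both lists. Singly, 4 of 7 tested progenitor markers had a positive difference and 3 a negative one. Mast cell and basophil markers were 4 positive and 4 negative, and 0 genes of either list were called. The part of either list in the members' values was not tested.

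Stat2 read 4.92, 4.60 and 4.68 on empty-vector arrays 4 to 6 and 5.06, 5.42 and 5.49 on cluster arrays 4 to 6. The cluster arrays were all higher, and the difference was 0.59 ± 0.17 (SE, 1.51-fold, adjusted p = 0.334). Its probe was detected on 1 of 3 empty-vector arrays, 3 of 3 cluster arrays and 3 of 3 miR-125a arrays. Stat2 thus passed the detection filter through the groups where it was higher, and its controls were near background. In dataset A the same contrast gave -0.32, which was -0.03 without cluster array 3. Without background correction the dataset B value was 0.16.

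Ifit2, an RNA-binding effector, read 6.49, 6.50 and 6.65 with the empty vector and 6.95, 6.81 and 7.01 with the cluster. The groups were apart and narrow, with SDs of 0.09 and 0.10, and the difference was 0.38 ± 0.11 (1.30-fold, adjusted p = 0.313). A second Ifit2 probe gave 0.71, and in dataset A both probes were also positive, at 0.29 and 0.34. Gbp2 read 5.20, 5.65 and 5.81 with the empty vector and 5.91, 6.08 and 5.95 with the cluster, a difference of 0.43 ± 0.19 (adjusted p = 0.504). Oasl2 read 5.15, 5.35 and 4.87 against 5.86, 5.69 and 5.26, and differed by 0.48 ± 0.23 (adjusted p = 0.533). The Oasl2 groups overlapped, while at each shared replicate number the cluster array was higher (adjusted p = 0.339 with the replicate block). The numbers are not known to mark pairs. Without background correction Gbp2 and Oasl2 each differed by 0.15.

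Trim30a, a ubiquitin ligase of the TRIM family, read 6.94, 7.31 and 7.08 with the empty vector and 7.34, 7.60 and 7.40 with the cluster. The difference was 0.33 ± 0.16 (adjusted p = 0.531), and in dataset A its groups were also apart, at 0.22 ± 0.16. Irgm1 read 13.75, 13.74 and 13.66 with the empty vector and 13.88, 13.87 and 13.78 with the cluster, a difference of 0.13 ± 0.12 (adjusted p = 0.809). Its probe had deposited intensities of 9403.5 to 16690.6 in dataset B, where the other 2 Irgm1 probes read 143.9 to 237.7 and 105.3 to 123. Whether these probes report the same RNA was not tested. Isg15 differed by 0.14, Usp18 by 0.23, Dhx58 by 0.32 and Bst2 by -0.11.

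Zbp1 had the lowest value. It read 6.70, 5.83 and 5.55 with the empty vector and 5.78, 5.26 and 5.43 with the cluster, a difference of -0.54 ± 0.25 (adjusted p = 0.533). Empty-vector array 4 alone stood above 6, and without it the difference was -0.20. The groups overlapped, while at each shared replicate number, not known to mark a pair, the cluster array was lower (adjusted p = 0.375 with the replicate block). Parp14, lowest in dataset A, read 6.28, 6.20 and 6.64 against 6.26, 6.41 and 6.34 here and differed by -0.04 ± 0.13.

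With miR-125a, 0 of 23 members passed, as did 0 of all 9395 genes (0%). Ifit2 and Stat2 had an unadjusted p under 0.05, against 10.6% of all genes. Ifit2 alone had groups that did not overlap, where 15.5% of all genes did. The members' median was 0.00 beside 0.03 over all genes.

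Ifit2 read 6.81, 6.80 and 6.84 with miR-125a, all above the controls, and differed by 0.27 ± 0.11 (SE, 3 arrays against 3, adjusted p = 0.418). The second Ifit2 probe gave 0.59 ± 0.17 (adjusted p = 0.340 in the fit of every probe). Stat2 read 5.37, 4.84 and 5.30 and differed by 0.43 ± 0.17 (adjusted p = 0.420). Array 2 of miR-125a lay below the highest control, and Stat2 was detected on only 1 of the 3 controls. Trim30a (0.33 ± 0.16, adjusted p = 0.497) and Gbp2 (0.32 ± 0.19, adjusted p = 0.587) also had positive values. Zbp1 read 5.57, 5.65 and 5.74 with miR-125a, a narrow group inside the range of the controls, and differed by -0.37 ± 0.25 (adjusted p = 0.637). The summed normalized intensity of 8 mast cell and basophil markers was 4923 to 10042 with miR-125a and 4112 to 4510 with the empty vector, and its part in these values was not tested.

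Between the cluster and its member miR-125a, 0 of 23 members passed, with 0 of all genes (0%), and 0 members had an unadjusted p under 0.05, against 4.57% of all genes. The largest value was that of Dhx58, at 6.50, 6.64 and 6.79 with the cluster and 6.49, 6.37 and 6.02 with miR-125a. It differed by 0.35 ± 0.18 (95% interval -0.05 to 0.74), and it was the 1 member whose groups did not overlap, where 9.47% of all genes had such groups. Rsad2 followed at 0.33 (interval -0.19 to 0.86), Oasl2 at 0.23 (-0.28 to 0.73) and Isg15 at 0.21 (-0.35 to 0.76). The members' median was 0.11 beside 0.00 over all genes, and 17 of 23 were positive against 49.2% of all genes. The 95% intervals of all 23 members lay within a log2 difference of 1, so this comparison does not show that the vectors act alike on smaller differences.

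Whether the cluster acted differently in the 2 datasets was tested over 12 arrays normalized together. None of 23 members passed, with 0 of 8959 genes (0%). Stat2 was the 1 member with an unadjusted p under 0.05, against 5.51% of all genes. Its cluster effect in dataset A minus that in dataset B was -0.89 ± 0.35 (SE, adjusted p = 0.870), and its dataset A term depended on cluster array 3. Its dataset B term rested on controls near background, with detection on 1 of 3 arrays. Parp14 gave -0.43 ± 0.23 (adjusted p = 0.870) and Ifit2 -0.12 ± 0.20 (adjusted p = 0.956).

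The members varied between replicates somewhat more than the median gene. The median within-group SD was 0.25 over the 25 members and 0.22 over all genes tested in dataset A, and 0.23 and 0.19 in dataset B. In dataset A it ran from 0.09 for Irf9 to 0.49 for Stat2, and was 0.46 for Rsad2 and 0.41 for Bst2. In dataset B it ran from 0.08 for Ifit2 to 0.38 for Ifi27l2a and Zbp1. The median deviation of the members from their mean over the arrays of the dataset lay between -0.16 and 0.13 on the 17 arrays. The lowest was miR-125a array 3 and the highest cluster array 5. Over all genes it lay between -0.03 and 0.02. In dataset A, empty-vector array 3 held the highest value of 8 of 25 members and cluster array 1 that of 7. Empty-vector array 4 held the lowest value of 7 of 23 members in dataset B.

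Genes with several detected probes allowed a check on direction. Probes of 1 gene gave the same sign in 3 of 6 members for the cluster in dataset A, 4 of 6 for miR-155, 4 of 7 for the cluster in dataset B and 2 of 7 for miR-125a. Gbp3 and Ifit2 agreed in sign in the comparisons where their values were largest. For Irgm1 the brightest probe gave 0.24 and another -0.17 with the cluster in dataset A, and for Dhx58 the brightest probe gave 0.32 and another -0.12 with the cluster in dataset B. The widest gap was that of Dtx3l with miR-125a, where the probe used gave -0.12 and a dimmer one, detected on 7 of 9 arrays, 0.70 ± 0.18 (adjusted p = 0.293 in the fit of every probe). With the cluster in dataset B that dimmer Dtx3l probe gave 0.48 and the one used 0.01.

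Members with and without the response-element core were set side by side, and the difference between them was not tested. With the cluster in dataset B the median was 0.12 over 10 members with the core and 0.08 over 8 without. With the cluster in dataset A it was -0.05 over 11 and 0.16 over 8. With miR-155 it was -0.12 over 11 and 0.14 over 8, and the members with the core spanned -0.84 (Gbp3) to 0.90 (Bst2). With miR-125a it was -0.03 and 0.09.

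The rest of the pathway was read from lists of genes outside the members. Of 19 interferon genes, 18 had a probe, and Ifnb1, Ifna2, Ifna4, Ifna5, Ifna14, Ifnk and Ifnl3 were detected on none of the 17 arrays, and Ifng on 1. Ifna6 and Ifnab probes were detected on all arrays, where interferon-alpha genes are near copies whose probes may take each other's RNA. Ligands that were tested, 3 in A and 4 in B, gave 0 calls and differences between -0.38 and 0.27 against the empty vector. Of 8 receptor chains and kinases, 7 were tested in A and 6 in B with 0 calls, and Ifnar1 was detected on no array. Tyk2, a kinase of the interferon receptor, differed by -0.70 ± 0.19 with the cluster in dataset A (adjusted p = 0.138) and by -0.22 in dataset B. Ifngr1, a chain of the interferon gamma receptor, differed by -0.82 ± 0.20 with miR-155 (adjusted p = 0.0704).

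Upstream of interferon, Sting1, the adaptor of the DNA sensor cGAS, differed by -0.73 ± 0.17 with the cluster in dataset A (adjusted p = 0.0691). The same gene differed by -0.28 with the cluster in dataset B and by -0.38 ± 0.12 with miR-125a (adjusted p = 0.311). Mavs, the adaptor of the RNA sensors, differed by 0.58 ± 0.19 with miR-155 (adjusted p = 0.263). Of the 12 sensors and adaptors listed, 10 were tested in each dataset and 0 passed in any of the 6 comparisons. Feedback inhibitors gave 0 calls among 6 tested, with Socs3, which blocks receptor kinases, at 0.73 ± 0.21 with the cluster in dataset B (adjusted p = 0.333) and 0.56 ± 0.20 with miR-155 (adjusted p = 0.317). STAT and IRF factors outside the members gave 0 calls among 5, and Irf5 differed by -0.49 with the cluster in A and by -0.51 with miR-155.

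A wider list of 76 other interferon-induced genes had 51 tested in dataset A and 50 in B, with 0 calls in any comparison. Its medians against the empty vector were 0.00 for the cluster and 0.10 for miR-155 in dataset A, and -0.0055 for the cluster and 0.00 for miR-125a in dataset B. Trim26, a ubiquitin ligase, differed by -0.71 ± 0.20 with the cluster in dataset A (adjusted p = 0.180), and Mov10, an RNA helicase, by 0.62 ± 0.18 (adjusted p = 0.180). Trim21, an antibody receptor and ubiquitin ligase, differed by 0.48 ± 0.11 with miR-125a (adjusted p = 0.217).

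**Figure D5:**
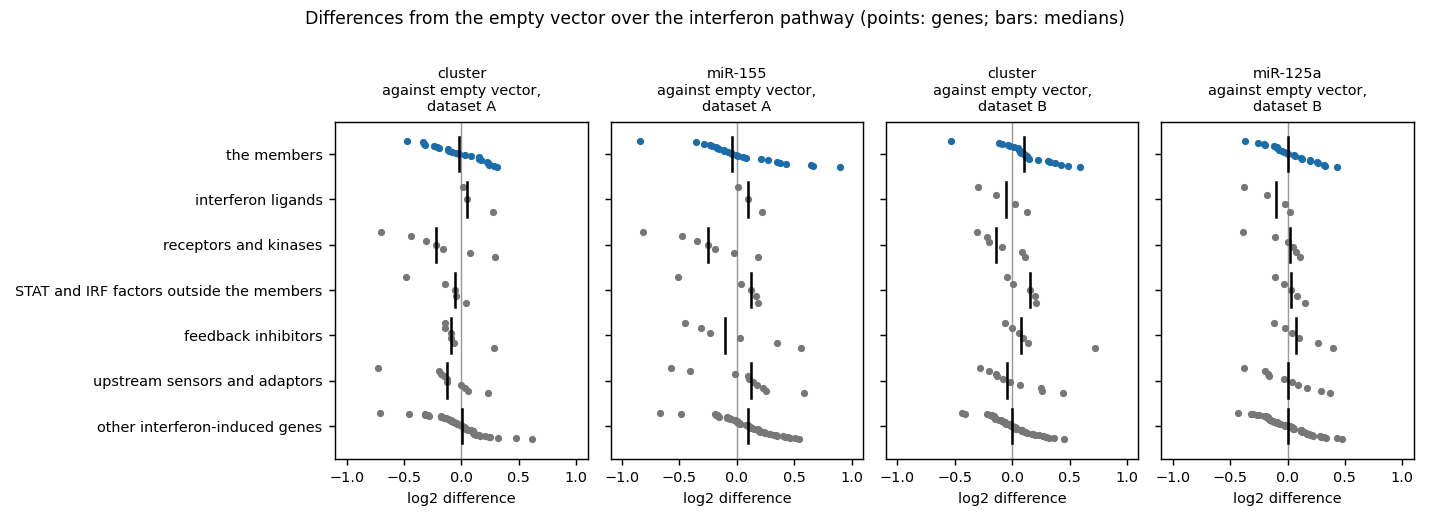
Log2 difference from the empty vector (horizontal axis) of the members (blue points) and of 6 other lists of the interferon pathway (grey points) in 4 comparisons, with medians as black bars. All medians lie within 0.25 of 0, and no point shown passed the test.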

How the data were processed

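Messenger RNA from sorted EGFP+ marrow cells was measured on 17 single-colour Illumina arrays, from 100 ng of total RNA per the labels' protocols. Deposited intensity values came with detection p-values, and the submitters' processing notes name GenomeStudio. Whether background was subtracted upstream is not stated in the sources. The authors' log2 values of the series matrix kept the ranks of the intensities, had 1 distribution on all arrays of a dataset (medians 6.47 for A, 6.80 for B), and were not centred per gene. Their making is not stated in the sources, and they were used as an alternative.

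Groups came from the sample titles. A repeated header in dataset A names cluster array 1 on 2 columns, so the second was used as a cluster array without a number. Of 136 array pairs, 0 were identical. In R 4.3.3, limma 3.58.1 corrected background by normexp (offset 16), its controls estimated through the detection p-values, quantile-normalized each dataset, then ran lmFit, contrasts and eBayes over all groups of the dataset. Adjusted p values are limma's, by Benjamini-Hochberg over 10267 genes in A and 9395 in B, and an adjusted p under 0.05 was called. Probes were named from GEO's platform annotation, which gave 34885 probes 1 symbol, 18 several and 10378 none, and 34807 gene IDs matched the RefSeq gene list of GRCm38.p6 with 0 symbols changed. The scripts were tested on simulated data.

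The members, the other gene lists and the alternatives were chosen with earlier results of these data known. Members called, or else the 4 of largest difference, were taken for each comparison. Levels of different probes were not ranked, although the rule allowed for it. Genes of non-overlapping groups, other probes and further list members were named after their values were seen. In dataset B the deviations of same-numbered control and cluster arrays from their group means had correlations of 0.120, 0.186 and 0.180. In dataset A, by the deposited log2 values, these correlations were -0.190, -0.025 and 0.362. Arrays of different numbers were not correlated, so these values cannot show that the numbers mark pairs. A replicate block was therefore run only as an alternative. Sequences come from RefSeq tables (GRCm38.p6), with 32851 promoter entries. Alternatives were background correction, normalization, detection filter, probe choice, the deposited log2 values, array weights, prior, groups in the fit, a replicate block, and each array left out.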

Additional observations from a re-analysis of the deposited data

Results flagged for a closer look

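Irf9 differed by -0.33 between cluster and empty vector in dataset A and by 0.11 in dataset B. It stood out because every cluster array of dataset A lay below the mean of its controls, while every cluster array of dataset B lay above it. The test of the difference itself, the cluster effect in A minus that in B, gave -0.43 ± 0.20 (SE, limma adjusted p = 0.870), so a difference between datasets was not established. In dataset B one control, empty-vector array 6 at 6.84, was higher than all cluster arrays (6.65, 6.61 and 6.70).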

How the results depend on the processing

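Under every alternative run, 0 members were called for the cluster against the empty vector in either dataset, for the cluster against miR-125a, and for the difference between datasets. For miR-155 against the empty vector, a replicate block over the 4 arrays that share numbers called 2 members, Bst2 (0.99, adjusted p = 0.000760) and Rsad2 (0.87, adjusted p = 0.00650). The correlations of the same-numbered arrays of these groups were 0.255 and 0.0441, and these numbers are not known to pair the samples. With 4 arrays, 2 groups and a block, that fit left little to estimate a gene's own spread. Its p-values therefore lean on the spread shared over all genes. Over all genes, the alternatives for this comparison called from 20 to 240. With arrays left out in turn the count of members called ran from 0 to 1, the 1 being Gbp3 (-1.02) without empty-vector array 2. For cluster against miR-155 the 1 call, Ifi27l2a, became 0 without background correction, with median scaling, with no detection filter, with the authors' log2 values and with a replicate block on those values, at adjusted p of 0.141, 0.527, 0.133, 0.153 and 0.328, and 0 to 1 with arrays left out. The authors' log2 values gave -0.38. It was called under the 5 other settings, at adjusted p between 0.0332 and 0.0473. No filter adds genes to the adjustment; the cause of the other losses was not tested. In dataset B the replicate block called 0 members, as without it, and changed no other call.

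Median scaling took the median of all genes to -0.31 for miR-155, 0.23 for cluster against miR-155, 0.32 for the cluster in B, 0.48 for miR-125a and -0.16 for cluster against miR-125a, and the members' medians followed, at -0.25, 0.25, 0.38, 0.48 and -0.056. With miR-125a it called 2 members, Ifit2 (0.76) and Trim30a (0.86), and turned Zbp1 to 0.025. The median of all genes was 0.48 there, and up to 1766 genes were called for miR-125a over the alternatives. These 2 calls are therefore not read as a result about the members. With arrays left out, the members' median for miR-125a ran from -0.034 to 0.10, and Isg15 for cluster against miR-125a from -0.026, without cluster array 4, to 0.36. Of 433 checks of named genes, 418 kept direction and side of the threshold, but sizes did not hold: of 24 named differences, 21 shrank by over 1.5 times without background correction and 24 with the authors' log2 values. Genes called over the whole array ran from 7 to 82 for the cluster in A (66 in the main setting), 20 to 240 for miR-155 (107), 13 to 113 for cluster against miR-155 (88), 0 to 56 for the cluster in B (1), 0 to 1766 for miR-125a (0) and 0 to 4 for cluster against miR-125a (0). Dim probes near background limit what can be seen of Irf7, Ifit3, Parp9, the 9 untested members and, in the dataset B controls, Stat2.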
